A study of Mus musculus with 5 samples.

Results

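A set of 10 genes of C-type lectin receptors of macrophages and dendritic cells were described across single myeloid cells sorted from mouse brain: Cd209a, Cd209f, Cd209g, Mgl2, Clec4n, Clec7a, Clec4a1, Clec4a2, Clec4a3 and Clec12a. They were taken by gene symbol, and all 10 were present among the 52542 gene entries of the count tables. C-type lectin receptors are surface proteins whose lectin domain binds sugars or other ligands on microbes, glycoproteins and dying cells. In the brain, Clec7a is known as a gene of activated microglia, whereas Cd209 family genes and Mgl2 are known from macrophages of the meninges and perivascular spaces and from dendritic cells.

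The cells came from heterozygous DM-hTAU mice, a tauopathy model on a mixed BALBc and C57/BL6 background that carries human tau with a pair of mutations linked to frontotemporal dementia under the natural tau promoter. All 5 libraries are labelled as brain of 9-month-old mice given an antibody to PD-L1, an immune checkpoint ligand, and as positive for CD45 and CD11b. The methods call the sorted cells CD45high CD11bhigh. There was thus 1 group, without a control treatment, and the labels tie no well to a mouse. The p-values measure only how differences between classes varied from library to library, and that spread may be technical. The labels also describe a preparation of thymus and small intestine, which differs from the stated tissue, and the paper's text names IgG2b-treated mice as a further source of sorted cells.

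Transcripts were counted by MARS-seq, in which each cell lies in a well of a plate and each molecule carries a unique molecular identifier (UMI). Of 1900 wells with a cell, 825 held at least 500 UMIs and were kept, with a median of 1015 UMIs. The libraries were uneven, with 314 and 285 kept cells in replicates 5 and 3 and between 68 and 87 in replicates 1, 2 and 4. The 384 well barcodes recurred in every library by plate design, and no well identifier was in more than 1 library. Cells were placed in classes by the share of their UMIs in marker genes, none of them a C-type lectin. The members took 1955 UMIs in the kept cells, from 20 for Cd209g to 434 for Mgl2, and 1 UMI in 20 empty wells. Levels are given as UMIs of a gene per 10000 UMIs of the same cells, with 95% Poisson intervals (exact) for the counting error alone, and were compared between classes and not between genes.

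The gates gave 331 microglia-like cells, 115 border macrophage-like cells, 123 cells with S100a4-type genes and MHC class II genes (S100a4 MHC class II cells), 154 cells with MHC class II genes but neither signature (MHC class II-only cells), 20 monocyte-like cells and 30 neutrophil-like cells, and 52 cells passed no gate. Border macrophages live at the brain's meninges and vessels. Their gate genes, among them Lyve1, Pf4 and Cd163, summed to 64.5 to 89.0 UMIs per 10000 over the libraries within the gate and to 1.35 to 6.21 in the microglia-like cells. Of the 115 cells, 34 also passed the microglia threshold. Over the libraries, S100a4-type genes in this gate ranged from 6.20 to 92.4 per 10000 and monocyte genes from 2.11 to 49.4. The highest values were those of replicate 1, with 6 cells. The S100a4 MHC class II cells had S100a4-type genes at 69.6 to 119. Whether the border gate of replicate 1 held mixed cells was not tested. In the S100a4 MHC class II cells, 15 of 16 dendritic cell markers were detected at 15.7 per 10000 together (10.4 to 32.1 over libraries), against 4.43 (2.42 to 6.74) in the microglia-like cells. The defining dendritic genes Flt3 and Zbtb46 were low there, at 0.455 and 0.152 per 10000, and Xcr1 was at 0, so these cells are named by their gate. Fscn1, also on the list, was at 0.493 there against 2.40 in the microglia-like cells. In the MHC class II-only cells 15 of 16 markers were detected too, at 3.58 together. Their range over libraries, 2.08 to 37.6, covered that of the S100a4 MHC class II cells. In the monocyte-like cells, T and NK cell markers summed to 20.5 per 10000, and their part in the values of that class was not tested. The gates cut continuous scores: 38 of the border cells, 90 of the microglia-like cells and 27 of the S100a4 MHC class II cells lay within 1.5 times above their threshold.

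The 3 Cd209 genes lie on chromosome 8 of GRCm38, in the GENCODE annotation, and show how close relatives can differ in these cells. Cd209a (chr8:3743397-3748984, minus strand) and Cd209f (chr8:4102787-4105835, minus strand) are 354 kb apart, and Cd209g (chr8:4134098-4137707, plus strand) begins 28.3 kb after Cd209f. The promoter windows below, from 250 bases before to 50 after the RefSeq start, are printed because Cd209a parted from Cd209f and Cd209g between classes. Capitals mark matches to 3 motifs searched on both strands: GAGGAA, the core bound by PU.1, TGCTGA, a MAF half-site, and GGAA followed after 2 bases by GAAA, an ETS-IRF composite element.
Cd209a, chr8:3748935-3749234, GRCm38.p6, minus strand: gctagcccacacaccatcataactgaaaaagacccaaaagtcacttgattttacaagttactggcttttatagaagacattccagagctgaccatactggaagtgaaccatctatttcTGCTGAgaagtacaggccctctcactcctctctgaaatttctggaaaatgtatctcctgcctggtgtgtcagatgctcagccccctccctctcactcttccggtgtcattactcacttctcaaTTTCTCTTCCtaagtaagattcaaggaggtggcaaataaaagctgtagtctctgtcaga
Cd209f, chr8:4105715-4106014, GRCm38.p6, minus strand: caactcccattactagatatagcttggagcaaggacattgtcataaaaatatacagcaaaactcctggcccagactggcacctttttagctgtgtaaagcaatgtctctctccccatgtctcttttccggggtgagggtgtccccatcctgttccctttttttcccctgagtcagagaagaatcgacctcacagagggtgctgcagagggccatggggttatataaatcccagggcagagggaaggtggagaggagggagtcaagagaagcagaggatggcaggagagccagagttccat
Cd209g, chr8:4134486-4134785, GRCm38.p6, plus strand: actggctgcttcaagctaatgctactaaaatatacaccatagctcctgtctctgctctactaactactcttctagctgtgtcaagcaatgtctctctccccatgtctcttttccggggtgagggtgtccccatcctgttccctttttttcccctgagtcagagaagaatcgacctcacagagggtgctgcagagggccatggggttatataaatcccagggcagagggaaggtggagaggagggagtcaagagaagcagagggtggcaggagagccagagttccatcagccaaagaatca
Cd209f and Cd209g shared an unbroken run of 180 bases, which began 154 bases before the start in Cd209f and 168 before it in Cd209g. Over the 36 pairs of the 9 members with a promoter sequence, no other pair shared a run of more than 11 bases. The Cd209a window held a MAF half-site 132 bases before the start, a motif found in 19.5% of 32851 promoter windows, and an ETS-IRF composite 9 bases before it, found in 2.72%. The Cd209f and Cd209g windows held none of the 3 motifs. Such matches describe letters and say nothing of binding. A shared promoter sequence did not carry over to the part of the transcript that was counted, since none of the 40-base words of the last 500 transcript bases of any Cd209 member occurred in another gene.

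Cd209a, a mouse relative of human DC-SIGN known from monocyte-derived dendritic cells, was concentrated in the S100a4 MHC class II cells. These made up 14.9% of the kept cells and, being deeper, held 263737 of the 1.13e+06 UMIs of all kept cells. Of the 347 UMIs of Cd209a they held 77.2%. Its level there was 10.3, 14.3, 9.66, 25.7 and 9.34 per 10000 in replicates 1 to 5, or 13.9 ± 6.92 (SD, n = 5). The microglia-like cells of the same libraries had 0, 1.01, 0.896, 0 and 0.678, or 0.517 ± 0.487 (SD, n = 5). Every library's S100a4 MHC class II cells lay above the microglia-like cells of all libraries, and the groups did not overlap. The border macrophage-like cells had 0 in replicate 1, 0.811 in replicate 3, 0 in replicate 4 and 2.40 in replicate 5, again without overlap with the S100a4 MHC class II cells. Pooled, the level was 10.2 (8.98 to 11.5), against 1.42 (0.825 to 2.27) in the border macrophage-like, 1.26 (0.827 to 1.83) in the MHC class II-only and 0.695 (0.465 to 0.998) in the microglia-like cells. From the border macrophage-like cells downwards, neighbours in that order had overlapping intervals, and the order of the middle classes changed with single libraries: the border level was 0.808 without replicate 5, and the MHC class II-only level was 0.794 without replicate 2 and 2.10 without replicate 5.

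Cd209a was detected in 48.0% of the S100a4 MHC class II cells and in 7.55% of the microglia-like cells, at median depths of 1715 and 1015 UMIs. With every cell thinned to 500 UMIs, these shares were 31.7% (23.6 to 40.7, exact binomial) and 2.72% (1.25 to 5.10). Neutrophils, which should lack the gene, had it in 1 of 30 cells (3.33%) at a median of 668.5 UMIs, and in the same 3.33% after thinning (0.0844 to 17.2). This interval, from 1 cell, is too wide to tell whether the thinned share in microglia-like cells was background. The gene reached 20 UMIs in a single cell, 5.76% of its total.

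Cd209f, a less studied gene of the family, had the opposite distribution. The border macrophage-like cells held 46 of its 61 UMIs (75.4%) while making up 13.9% of the kept cells. Its level in them was 0 in replicate 1, 4.05 in replicate 3, 0 in replicate 4 and 4.59 in replicate 5. The zeros came from 6 and 5 cells, in which 3 counts would have been 6.45 and 6.20 per 10000, so levels like those of replicates 3 and 5 were not detectable there. Replicates 1, 2 and 4 had no Cd209f UMI in any kept cell, and what follows on the gene rests on replicates 3 and 5. Pooled, the level was 3.83 (2.81 to 5.11) in the border macrophage-like cells, 0.168 (0.067 to 0.346) in the microglia-like cells, 0.139 (0.029 to 0.408) in the MHC class II-only cells and 0.114 (0.023 to 0.332) in the S100a4 MHC class II cells. The last 3 had overlapping intervals. The border macrophage-like level was 33.7 times that of the S100a4 MHC class II cells (10.8 to 169, counting interval from 46 and 3 UMIs).

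Cd209g, its neighbour on the chromosome, followed it at a lower count, with 16 of 20 UMIs in the border macrophage-like cells. Its level there was 0 in replicate 1, 2.11 in replicate 3, 0 in replicate 4 and 0.656 in replicate 5. No Cd209g UMI was found in the 123 S100a4 MHC class II cells, which allows a share of cells with a UMI of up to 2.44% taken as 3 counts, or 2.95% as the upper exact binomial limit. The pooled border level of 1.33 was at least 11.7-fold higher than the floor of 3 counts over that class. It rested on replicate 3, without which it was 0.514 from 3 UMIs. In microglia-like cells the level was 0.072 from 3 UMIs, and the border level was 18.5 times that (5.31 to 99.3, counting interval).

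Mgl2 (chr11:70130329-70137550, plus strand), a galactose-binding lectin of macrophages and of a dendritic cell subset, was shared by the classes with MHC class II genes. Its level in the S100a4 MHC class II cells was 2.29, 9.10, 8.30, 6.43 and 7.45 in replicates 1 to 5, or 6.71 ± 2.67 (SD, n = 5). The microglia-like cells had 2.76, 2.70, 0.896, 0 and 1.07, so the groups overlapped through replicate 1. MHC class II-only cells ranged from 0 in replicate 1 to 16.1 in replicate 4, with a pooled level of 5.53 (4.58 to 6.62). The border macrophage-like cells had a pooled level of 4.58 (3.45 to 5.97), from 0 in replicates 1 and 4 to 5.68 in replicate 3. These zeros came from 6 and 5 cells, in which 3 counts would have been 6.45 and 6.20 per 10000. The 30 neutrophil-like and the 20 monocyte-like cells had no Mgl2 UMI, which allows shares of up to 10% and 15% taken as 3 counts, or 11.6% and 16.8% as upper exact binomial limits.

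**Figure D1:**
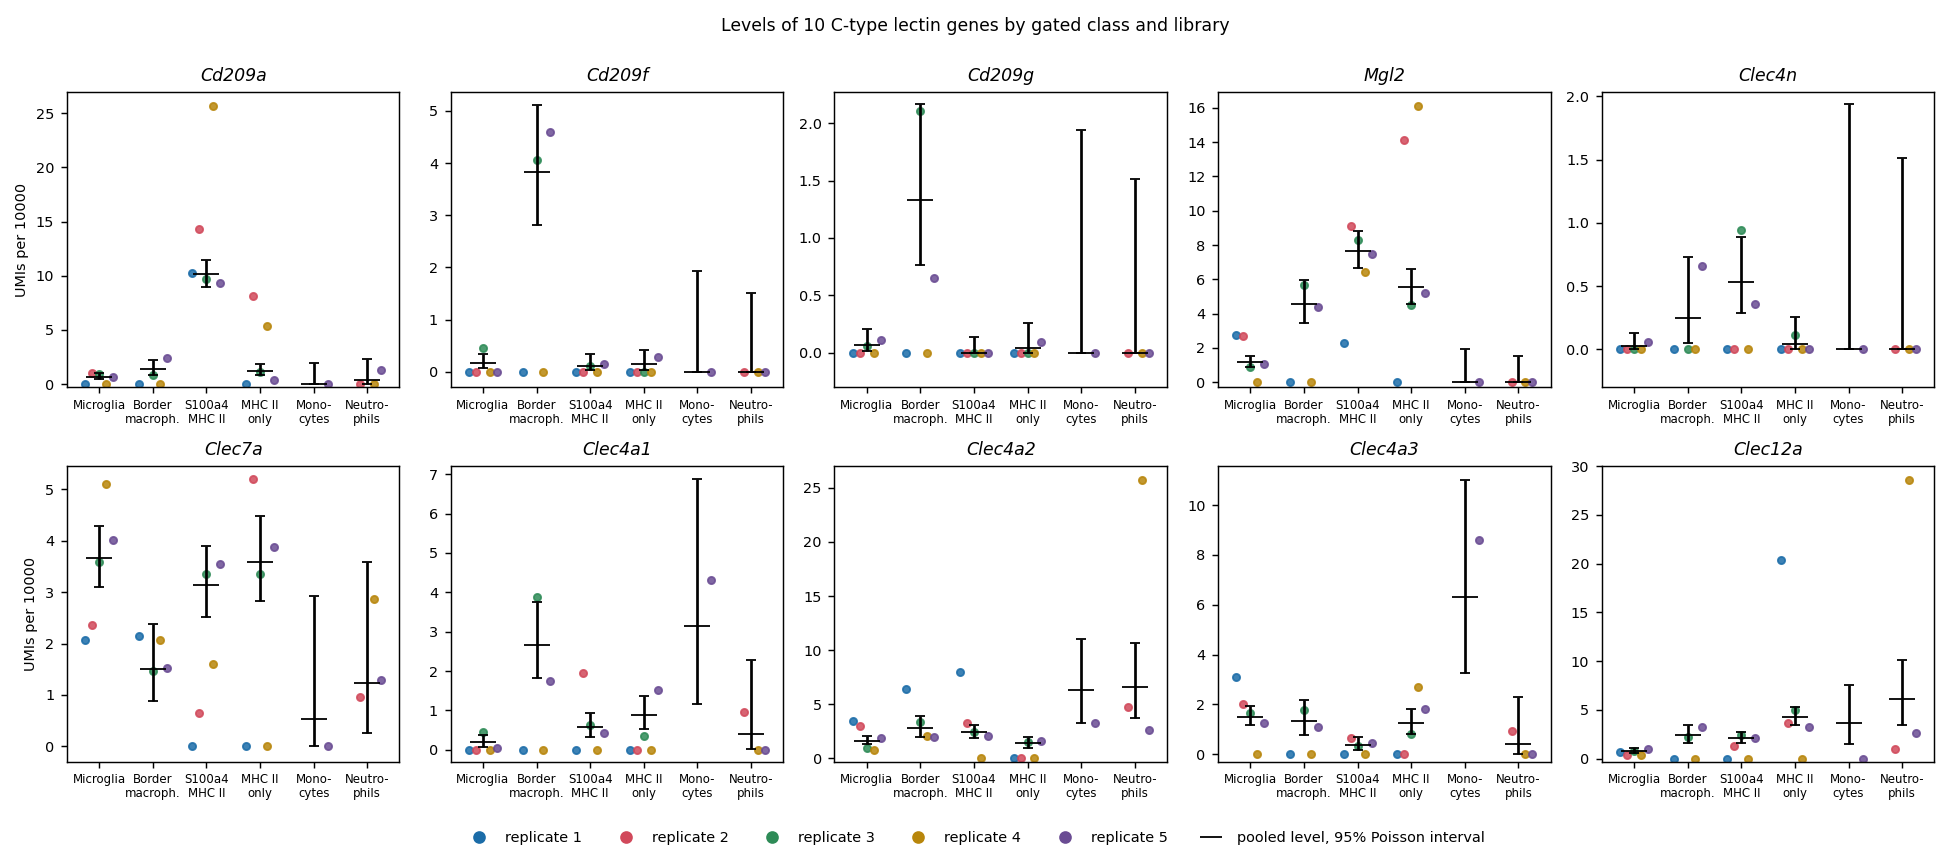
UMIs per 10000 of each of the 10 C-type lectin genes (y axis, 1 panel per gene with its own scale) in 6 classes of cells (x axis). Coloured points are libraries with at least 5 cells of the class, black lines the pooled level with its 95% Poisson interval. Cd209a stood at 9.34 to 25.7 in the S100a4 MHC class II cells and at 0 to 2.40 in the border macrophage-like cells, whereas Cd209f reached 4.59 in the latter.

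Sums of UMIs per library and class were tested by the quasi-likelihood method of edgeR, blocked by library, with p-values adjusted by Benjamini-Hochberg over the 7256 genes tested, and all 10 members passed the filter on low counts. Cd209f, Cd209g and Clec4n passed its total of 15 UMIs only through the class that held most of them, with 13, 4 and 5 UMIs in the other sums. Their values in comparisons with that class are therefore given as a description. Where they crossed the adjusted threshold they count among the members called, but nothing is read from it. In the S100a4 MHC class II cells against the microglia-like cells, 2 members were higher and 1 was lower at an adjusted p under 0.05, where 0.469% of all tested genes were higher and 3.94% were lower. An unadjusted p under 0.05 was given to 4 members, among them Clec4n, and to 17.4% of all genes. The median log2 fold change was 0.48 over the members and -0.62 over all genes. Cd209a was higher by 3.84 on the log2 scale (SE 0.57, adjusted p = 9.4e-09 by edgeR), in 5 of 5 libraries, and Mgl2 by 1.87 (SE 0.54, adjusted p = 0.0199), in 4 of 5. Clec4a3, a member of the DCIR group of receptors, was lower, with a log2 fold change of -2.51 (SE 0.81, adjusted p = 0.0449) and lower levels in 4 of 5 libraries. The Mgl2 call was lost without replicate 3 (1.28, adjusted p = 0.538) and without replicate 5 (1.38, adjusted p = 0.449). That of Clec4a3 was lost in 12 of 15 alternatives, among them those without replicate 1 (adjusted p = 0.120), 2 (0.146), 3 (0.387) or 5 (0.263), whereas the Cd209a call held in each of the 15.

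Between the S100a4 MHC class II cells and the border macrophage-like cells, the Cd209 genes moved in both directions. Cd209a was higher by 2.91 (SE 0.66, adjusted p = 0.00320 by edgeR), in 4 of 4 libraries, the only member among the 0.152% of genes that were higher. As a description, Cd209f had a log2 fold change of -4.81 (SE 1.12), and Cd209g was also lower. Both crossed the adjusted threshold, with 0.648% of genes lower, but had passed the filter only through the border class. The fitted value of Cd209g, -5.41, depends on a prior count because 1 class had no UMI, and the bound above applies. Both were lower in the 2 libraries that had any UMI of them, and their groups overlapped at 0. An unadjusted p under 0.05 was given to 5 members, among them Cd209f and Cd209g, and to 11.0% of all genes. The median over all genes was -0.09, and -0.33 under the scaling of DESeq2 (RLE). The Cd209a call was lost without replicate 3 (3.09, adjusted p = 0.467) or 5 (4.22, adjusted p = 0.0842) and with the 34 border cells over the microglia threshold left out (2.28, adjusted p = 0.115). That of Cd209f was lost without replicate 3 (-4.11), and without replicate 5 the gene could not be tested. That of Cd209g was lost with a minimum of 300 UMIs per cell (adjusted p = 0.0644), with stricter gates (0.0553) and without the filter (0.173), and the gene could not be tested without replicate 3 or 5. With the default minimum count of the filter, neither was tested and Cd209a was the only member called. DESeq2 called no member (adjusted p = 0.0594 for Cd209a and 1 for Cd209f and Cd209g).

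Between the border macrophage-like and the microglia-like cells, edgeR called no member, where 0.0138% of all genes were called higher and 0.0689% lower. DESeq2 also called none. Of the 10 members, 5 had an unadjusted p under 0.05, as had 8.67% of all genes. The 5 include Cd209f and Cd209g, which passed the filter only through the border class, so nothing is read from the number. Cd209f had a log2 fold change of 4.05 (SE 1.05, adjusted p = 0.0899) and Clec4a1 one of 3.48 (SE 0.94, adjusted p = 0.116), and neither was detected in the border macrophage-like cells of replicates 1 and 4. Cd209f crossed the adjusted threshold without replicate 1, 2 or 4, from which nothing is read, since it passed the filter only through the border class. The median over all genes was -0.52 and moved to -0.25 with RLE scaling, and with it the split of called genes went from 1 higher and 5 lower to 6 higher and 3 lower. At this size, simulated 4-fold changes were recovered in 19.0% of genes in this comparison and 8-fold changes in 72.0%. Smaller differences were thus mostly not detectable. Whether these rates hold for the members, some of which have few UMIs, was not tested. Cd209f and Clec4a1 were not called although their pooled border levels were 22.9 and 13.9 times those of the microglia-like cells.

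**Figure D2:**
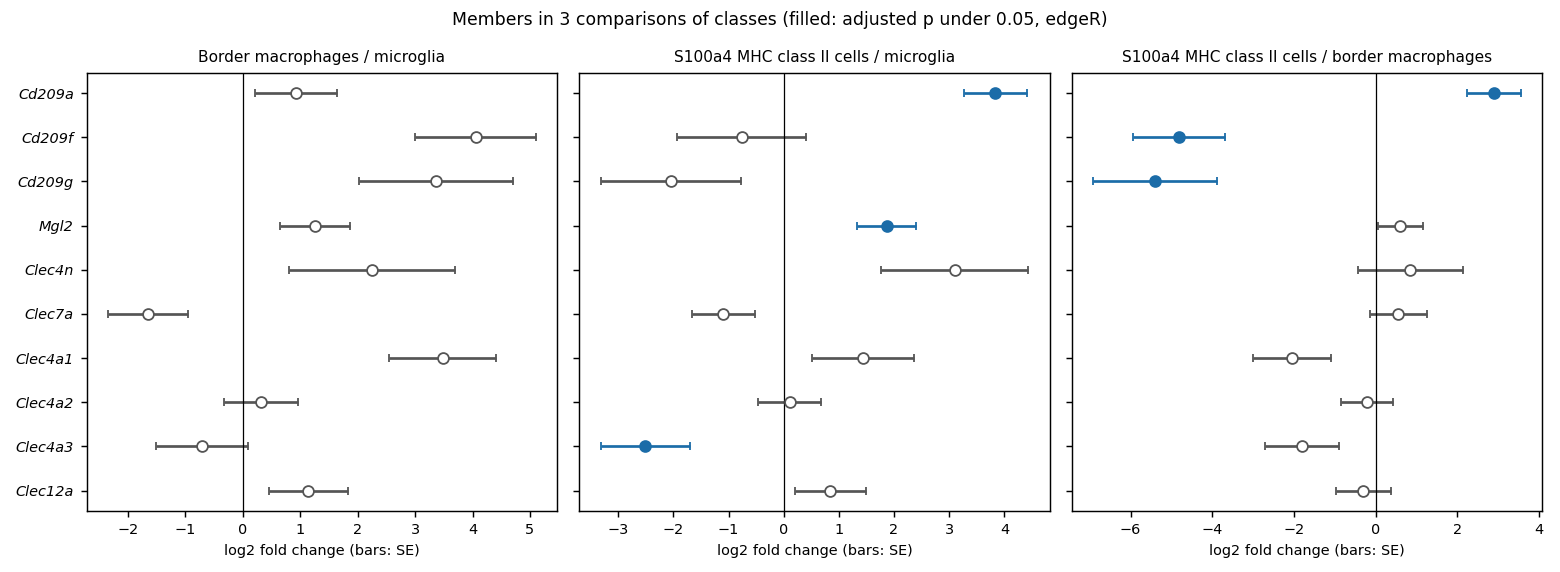
Log2 fold change (x axis, bars ± SE) of each member (y axis) in 3 comparisons of classes, from edgeR, with filled points for an adjusted p under 0.05. Cd209a is filled on the right in both comparisons of S100a4 MHC class II cells (3.84 and 2.91). Cd209f and Cd209g are filled on the left against border macrophages, but passed the filter only through that class and are a description. The Cd209g point in the right panel is a fitted value against a class at 0.

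Detection in single cells showed whether the Cd209 genes kept apart within cells or only between classes. Cd209a was detected in 117 cells and Cd209f in 34, with 6 cells holding both, which is 5.13% of the Cd209a cells (1.90 to 10.8) and 17.6% of the Cd209f cells (6.76 to 34.5). Among the cells without Cd209a, 3.95% had Cd209f (2.64 to 5.67). With every cell thinned to 500 UMIs, 1 cell held both, 1.49% of 67 Cd209a cells, against 1.98% of the cells without Cd209a. Cells with Cd209f were thus about as frequent among cells with Cd209a as among the others, with overlapping intervals, and the data did not show exclusion within cells. Of the 6 cells, 3 lay in the border gate, 2 in the S100a4 MHC class II gate and 1 in the microglia gate. They held between 566 and 10134 UMIs, and all but 1 had a single UMI of Cd209f.

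Within the border gate, 14 cells had Cd209a, 21 had Cd209f and 3 had both, so that Cd209f was found in 21.4% of the Cd209a cells (4.66 to 50.8) and in 17.8% of the rest (10.9 to 26.7). In the S100a4 MHC class II cells, 59 cells had Cd209a and 3 had Cd209f, with 2 in common. The separation was therefore seen between classes and could not be seen within the border gate at this depth.

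Over all kept cells, which mix the classes, Cd209a went together with Mgl2, and Cd209f with Cd209g. Mgl2 was found in 50 of the 117 Cd209a cells (42.7%, 33.6 to 52.2) and in 16.7% of the rest (14 to 19.6), and thinning left 26.9% (16.8 to 39.1) against 10% (7.98 to 12.4). Cd209g was found in 7 of the 34 Cd209f cells (20.6%, 8.70 to 37.9) and in 0.632% of the rest (0.206 to 1.47), and these 7 cells were 58.3% of all Cd209g cells. Mgl2 was found in 5 of the 34 Cd209f cells (14.7%, 4.95 to 31.1) and in 20.6% of the rest (17.8 to 23.6), with overlapping intervals. After thinning it was in 0 of 16 Cd209f cells (0 to 20.6) and in 11.6% of the rest (9.49 to 14). Within the S100a4 MHC class II cells, Mgl2 was in 57.6% of cells with Cd209a and 26.6% of the rest. Thinned, these shares were 30.8% (17.0 to 47.6) and 13.1% (6.72 to 22.2), which overlap. In the border gate the thinned shares were 12.5% and 17.8%. Cd209g was in 23.8% (8.22 to 47.2) of border cells with Cd209f and in 4.26% (1.17 to 10.5) of the rest, also with overlap. Cells are not replicates, and cells with Cd209a were deeper (median 1659 UMIs) than those without (961.5), which the thinning removed.

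**Figure D3:**
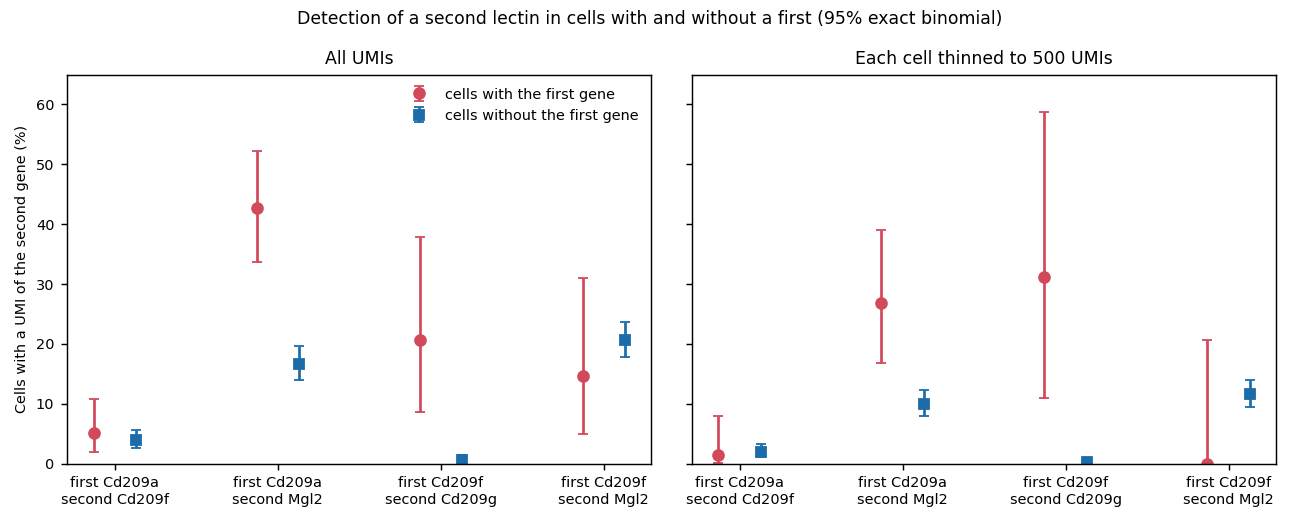
Percent of cells with a UMI of the second gene (y axis) among cells with (circles) and without (squares) a UMI of the first gene, for 4 pairs (x axis), over all kept cells before (left) and after (right) thinning each cell to 500 UMIs, with 95% exact binomial intervals. For Cd209a and Cd209f the intervals overlap, 5.13% against 3.95%, and for Cd209a and Mgl2 they do not, 42.7% against 16.7%.

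The border macrophage-like cells were split by their MHC class II level into 66 cells at or above 100 UMIs per 10000 and 49 below it, because meningeal and perivascular macrophages are known in such states. Only replicates 3 and 5 had at least 5 cells of each. Cd209f stood at 7.36 and 8.84 in the cells with low MHC class II of these libraries and at 2.08 and 0.824 in those with high MHC class II. Mgl2 went the other way, at 1.73 and 1.40 in the low and 8.04 and 7.0 in the high cells. Cd209a had 1.30 and 3.72 in the low and 0.519 and 1.24 in the high cells.

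By edgeR, no member passed the adjusted threshold in this split, with 7623 genes tested, of which 0.0% were called, and 2 members, Mgl2 and Cd209f, had an unadjusted p under 0.05, as had 3.88% of genes. DESeq2 called none. The log2 fold change from low to high MHC class II was 2.39 for Mgl2 (SE 0.81, adjusted p = 0.843 by edgeR) and -2.32 for Cd209f (SE 1.00, adjusted p = 0.843). Median depth was 876.5 UMIs in the high and 879 in the low cells. Of the 48 Mgl2 UMIs in the high cells, 13 came from 1 cell.

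**Figure D4:**
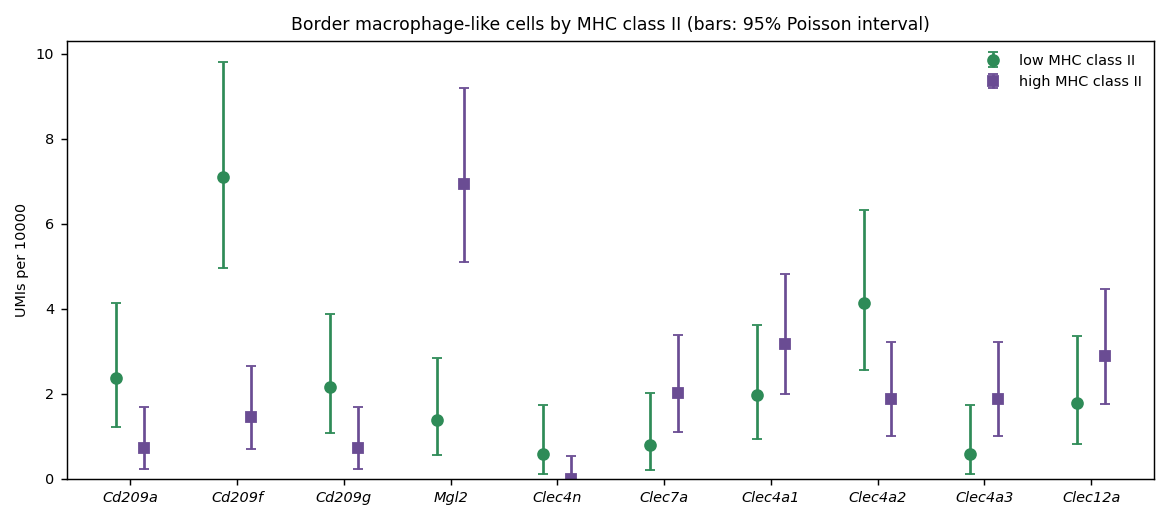
UMIs per 10000 (y axis) of the 10 members (x axis) in border macrophage-like cells with low (circles, 49 cells) and high (squares, 66 cells) MHC class II, pooled over libraries, with 95% Poisson intervals for counting error. Cd209f was at 7.09 in the low and 1.44 in the high cells and Mgl2 at 1.38 and 6.93, and neither difference passed the adjusted test over libraries.

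Clec7a (Dectin-1, chr6:129461591-129472779, minus strand, typed as a polymorphic pseudogene in GENCODE), the activating receptor for beta-glucans, was spread over most classes. Its level in the microglia-like cells was 2.07, 2.36, 3.58, 5.10 and 4.01 in replicates 1 to 5, or 3.43 ± 1.24 (SD, n = 5). The pooled levels of microglia-like (3.67), MHC class II-only (3.58) and S100a4 MHC class II cells (3.15) had overlapping intervals, and that of the border macrophage-like cells was lower at 1.5 (0.889 to 2.37). By library, the S100a4 MHC class II cells had 1.83 ± 1.59 (SD, n = 5), from 0 to 3.55. They were lower than the microglia-like cells in 5 of 5 libraries, though the groups overlapped. The log2 fold change was -1.10 (SE 0.57, adjusted p = 0.304 by edgeR), where all genes had a median of -0.62. In the border macrophage-like cells it was 2.1 in replicate 1, 1.46 in replicate 3, 2.07 in replicate 4 and 1.53 in replicate 5, which overlapped with the microglia-like cells in replicate 1. The log2 fold change between these classes was -1.65 (SE 0.70, adjusted p = 0.475 by edgeR). The highest pooled level, 5.91 (4.27 to 7.95), belonged to the 52 cells that passed no gate, at 4.63 to 11 in the 4 libraries with at least 5 such cells.

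Clec4n (Dectin-2, chr6:123229843-123247021, plus strand), an activating receptor for mannans, had 21 UMIs in 13 cells, of which 14 UMIs lay in S100a4 MHC class II cells. Its level there was 0 in replicates 1, 2 and 4, 0.945 in replicate 3 and 0.362 in replicate 5. Against the microglia-like cells, with 1 UMI, the pooled level was 22.2 times as high (3.37 to 937, counting interval), and the edgeR test gave an adjusted p of 0.182. Without replicate 3 the pooled level was 0.297, from 5 UMIs. With a minimum of 300 or 1000 UMIs per cell the gene crossed the adjusted threshold. Nothing is read from this, since as reported it passed the filter only through the S100a4 MHC class II cells.

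Among the receptors with an inhibitory motif, Clec12a (chr6:129342691-129365303, plus strand), which binds uric acid crystals, was lowest among the gated classes in the microglia-like cells, at 0.691, 0.337, 0.832, 0.392 and 0.960 in replicates 1 to 5. The pooled level was 0.815 (0.564 to 1.14) there, 2.09 (1.57 to 2.71) in the S100a4 MHC class II cells, 2.42 (1.62 to 3.47) in the border macrophage-like cells and 4.32 (3.49 to 5.30) in the MHC class II-only cells. It was 3.68 (1.48 to 7.58) in the monocyte-like cells, from 7 UMIs. The neutrophil-like cells had the highest level, 6.14 (3.44 to 10.1), with 10 of 15 UMIs from replicate 4, and 2.39 without that replicate. Replicates 1 and 4 had no Clec12a UMI in the border macrophage-like and S100a4 MHC class II cells. There, 3 counts would have been 6.45 and 6.20 per 10000 in the border macrophage-like cells and 3.43 and 4.82 in the others. Levels like the pooled ones were thus not detectable in these libraries, and no comparison called Clec12a as reported. When only cells of at least 1000 UMIs were kept, it was called by edgeR as higher than in the microglia-like cells in both the border macrophage-like (2.05, adjusted p = 0.0198) and the S100a4 MHC class II cells (1.63, adjusted p = 0.0120). Clec4a2 (chr6:123106428-123143999, plus strand), the ITIM-bearing receptor DCIR, was found in every class, from 1.39 in the MHC class II-only cells to 6.55 (3.75 to 10.6) in the neutrophil-like cells, and neighbours in that order all had overlapping intervals. In the neutrophil-like cells 9 of 16 UMIs came from 6 cells of replicate 4, where the level was 25.7, against 4.74 in replicate 2 and 2.59 in replicate 5, and the pooled level without replicate 4 was 3.35. In the monocyte-like cells, next at 6.31, 9 of 12 UMIs came from 3 cells of replicate 1, without which it was 1.85. Of its last 500 transcript bases, 11.1% of the 40-base words occur in Clec4a4 or Clec4b1, and a pseudogene overlaps it on the same strand, so its counts are uncertain.

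Clec4a1 (chr6:122921848-122934619) and Clec4a3 (chr6:122952515-122969875), relatives of Clec4a2 on the same strand and 17.9 kb apart, differed between classes. Clec4a1 stood at 3.89 in replicate 3, 1.75 in replicate 5 and 0 in replicates 1 and 4 in the border macrophage-like cells, with a pooled level of 2.67 (1.82 to 3.76), and at 0.192 (0.083 to 0.378) in the microglia-like cells. Without replicate 3 these levels were 1.37 and 0.038. The zeros came from 6 and 5 cells, in which 3 counts would have been 6.45 and 6.20 per 10000, so levels like those of replicates 3 and 5 were not detectable there. Clec4a3 was at 1.33 (0.762 to 2.17) and 1.51 (1.16 to 1.93) in the same classes, with overlapping intervals, and at 0.379 (0.182 to 0.697) in the S100a4 MHC class II cells. Both had their highest pooled level in the 20 monocyte-like cells, 3.15 (1.16 to 6.87) for Clec4a1 and 6.31 (3.26 to 11) for Clec4a3, from 6 and 12 UMIs, or 2.06 and 4.11 without replicate 5.

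Against these monocyte-like cells, of which only replicate 5 had enough for a sum (8 cells), the spread was not measured, and the p-values assume that this sum varied like those of the other classes. On that assumption edgeR called no member in the S100a4 MHC class II cells, where 0.0% of genes were higher and 0.0276% lower, and DESeq2 called none. An unadjusted p under 0.05 was given to 4 members and to 2.55% of all genes, from which nothing is read on single members. The monocyte-like cells had no UMI of Cd209a or Mgl2, so the pooled levels in the S100a4 MHC class II cells were at least 6.44-fold and 4.86-fold higher than a floor of 3 counts over the class. Clec4a3 was 16.6 times as high in the monocyte-like cells on the pooled level, from 12 and 10 UMIs.

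Over 14 sums of at least 10 cells, Pearson's r on log2(UMIs per 10000 + 1) gave the genes most alike to each member among 3501 genes with at least 50 UMIs. These points share libraries and depth, and the values are a description. Only replicates 3 and 5 gave a border sum. The classes were cut on the gate genes, so a high r with a gate gene follows in part from the gating, and nothing is read from it. Cd209f was nearest to the border gate genes Lyve1 (0.99), Cbr2 (0.98) and Folr2 (0.98), and Clec4a1 to Dab2 (0.78) and Siglec1 (0.72), also gate genes, and Adcy7 (0.71). Mgl2 was nearest to the MHC class II gate genes H2-DMb1 (0.93) and H2-Ab1 (0.92) and to Rpl5-ps1 (0.91), a ribosomal protein pseudogene, and Cd209a to Gm8730 (0.95), Olfm1 (0.92) and Rpl32 (0.91). For Clec7a they were Slc44a1 (0.88), Srsf3 (0.88) and Tgif1 (0.87), for Clec4a2 Capza1 (0.87), Tln1 (0.81) and Tnrc18 (0.76), for Clec4a3 Prkcsh (0.87), Klhl9 (0.83) and Stat3 (0.82), and for Clec12a Tbl1x (0.88), Sh3pxd2b (0.83) and Klra2 (0.83). Members with fewer than 50 UMIs were not compared. Between members, r was 0.77 for Cd209a and Mgl2, -0.05 for Cd209a and Cd209f and 0.71 for Cd209f and Clec4a1.

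Of 29 other C-type lectin genes, 10 could be tested, and each of the 3 comparisons among the microglia-like, border macrophage-like and S100a4 MHC class II cells called 1 of them by edgeR. Mrc1, the mannose receptor, was higher in border macrophage-like than in microglia-like cells (log2 fold change 2.32, SE 0.52, adjusted p = 0.0174) and lower in S100a4 MHC class II than in border macrophage-like cells (-3.33, SE 0.55, adjusted p = 1.9e-06). Clec10a, the close relative of Mgl2, was higher in the S100a4 MHC class II cells than in the microglia-like cells (4.09, SE 0.95, adjusted p = 0.00134). Of 16 genes of lectin receptor signalling, 14 could be tested and 1 was called, Tyrobp, an adaptor of activating receptors, which was lower in the S100a4 MHC class II than in the microglia-like cells (-1.31, SE 0.35, adjusted p = 0.00926), where all genes had a median of -0.62. The kinase Syk, which transmits the signal of Clec7a, had -1.20 in that comparison (SE 0.80, adjusted p = 0.440).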

How the data were processed

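The values deposited by the authors are UMI counts, not normalized, for each gene in each well. The submitters' notes name bcl2fastq 2.15.0.4 and mm10 (GRCm38), with the aligner not given in the sources used here. Wells with at least 500 UMIs outside ERCC spike-ins were kept, and no doublet caller was run, since doublets were gated out in the sort. The members, marker lists and other gene lists were chosen with earlier results of these data known. A cell entered the first class whose markers reached, per 10000 of its UMIs, 500 for neutrophils, 40 for border macrophages and 120 for microglia, then 30 for S100a4-type genes with 100 for MHC class II, 30 for monocyte genes below 100 for MHC class II, and 100 for MHC class II alone. Border, S100a4-type and monocyte gates also needed 3 marker UMIs.

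Counts were summed per library and class of at least 5 cells and fitted with edgeR 4.0.16 (quasi-likelihood, TMM, library as block, Benjamini-Hochberg), without the gate genes. The SE is the absolute log2 fold change over the square root of the F statistic. Genes were filtered with a minimum count of 1 and a total of 15. With the tool's default count of 10, 5 members were not tested, and the lower minimum was chosen after the default's results had been seen. The block is the library. Deviations of 2 classes of the same library correlated over 678 genes with r from 0.034 to 0.515. They were at 0.302 or more in replicates 3 and 5 and at 0.179 or less in the others. DESeq2 1.42.0, run on R 4.3.3, was an alternative, and the test was checked on simulated counts. Named genes were the members, the called genes of 2 lists and the 3 genes most alike to each member with at least 50 UMIs. Python 3.11.15 was used for the other steps. Promoters came from RefSeq tables for 9 of 10 members, without Clec4n, and gene positions from GENCODE.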

Additional observations from a re-analysis of the deposited data

Results flagged for a closer look

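In 39 sets of 4 or 5 libraries, Dixon's test at the 95% level set 1 library apart 9 times. Chance gives about 1 in 20, a rate that does not apply to 6 of the 9, in which every other library was at 0 and the test always sets the 1 library apart; 3 of these rest on 1 UMI. In the MHC class II-only cells, Clec12a was 20.3 per 10000 in replicate 1 (11 UMIs in 8 cells), against at most 4.96 in the others, and Clec4a1 was 1.51 in replicate 5 (16 UMIs), against at most 0.346. In the same class, Cd209f (0.284) and Cd209g (0.0946) in replicate 5 and Clec4n (0.115) in replicate 3 were the only values above 0. In the microglia-like cells, Cd209f and Clec4a1 were each 0.448 in replicate 3, from 7 UMIs, and Clec4n was 0.0565 in replicate 5, from 1 UMI. Clec4n in the border macrophage-like cells was 0.656 in replicate 5, from 3 UMIs, and 0 elsewhere.

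The 1075 wells with a cell and fewer than 500 UMIs, used in no comparison, held 442 UMIs of the 10 members, or 0.411 per well, against 0.05 per empty well (1 UMI in 20 wells). Per 10000 UMIs these were 16.7 and 31.2, the latter from 320 UMIs in all.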

How the results depend on the processing

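Values were compared for members with an unadjusted p under 0.05 or a call under any setting, without the monocyte-like comparison. Of 250 such values under alternative settings, 203 kept their direction and their side of the threshold, 31 lost a call, 15 gained one and 1 turned. The 203 include values uncalled both times. All 31 losses fell on calls in the S100a4 MHC class II cells. Against microglia-like cells they were 12 of 15 for Clec4a3, 6 of 15 for Mgl2 and 0 of 15 for Cd209a. Against border macrophage-like cells they were 6 of 15 for Cd209a, 3 of 13 for Cd209f and 4 of 10 for Cd209g. The turn was Mgl2 in border macrophage-like against microglia-like cells, at -0.025 without replicate 3 (up to 2.02 with another replicate left out, and 1.26 with all). The numbers of members called moved as follows. Border macrophage-like against microglia-like cells: 0, and 1 with RLE size factors, 2 with a minimum of 300 UMIs, 3 with 1000 UMIs, 1 with stricter gates, and 0 to 2 without a replicate. S100a4 MHC class II against microglia-like cells: 3, and 1 without the filter, with DESeq2, with looser gates or without the replicate block, 2 with stricter gates or the default minimum count, 4 with 1000 UMIs (without Clec4a3, with Clec4n and Clec12a), 3 with 300 UMIs (Clec4n in place of Clec4a3), and 1 to 3 without a replicate. Against border macrophage-like cells: 3, among them Cd209f and Cd209g as a description, and 1 without the filter, 0 with DESeq2, 1 with stricter gates, and 0 to 3 without a replicate. The 2 alternatives added after seeing the data each gave 1 in this comparison: the border gate without cells over the microglia threshold and the default minimum count of the filter. Against monocyte-like cells: 0, and 1 with a minimum of 300 UMIs; a minimum of 1000 UMIs and leaving out replicate 5 gave no value. The MHC class II split gave 0 in all. Without the replicate block, Mgl2 and Clec4a3 lost their call against microglia-like cells (adjusted p = 0.102 and 0.178 by edgeR), and Cd209a lost its call against border macrophage-like cells (0.0743). The share of Cd209a cells with Cd209f fell from 5.13% to 1.49% after thinning, which leaves fewer UMIs. The cause of the other changes was not tested. Over all settings, genes called numbered 0 to 58 (6 as reported), 57 to 468 (320), 1 to 354 (58), 0 to 4 (2) and 0 to 3 (0) in the 5 comparisons in this order. Members of 20 or 21 UMIs and classes of 5 or 6 cells per library limit what could be detected.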
